A study of Mus musculus with 15 samples.

Results

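The S100 genes followed here were a chosen list of 10, each matched by exact symbol in every expression file among 21110 genes. They were *S100a3*, *S100a4*, *S100a6*, *S100a8*, *S100a9*, *S100a10*, *S100a11*, *S100a13*, *S100a14* and *S100a16*. Another 6 S100 genes were measured and are given separately below. All were followed in ear RNA of 15 mice, 1 library each: at 2 weeks 4 wild type (WT, C57BL/6) and 4 *Socs3* cKO, and at 10 weeks 3 WT and 4 *Socs3* cKO. In the cKO mice *Socs3*, a feedback inhibitor of cytokine signalling, is deleted by Cre under keratin 5, a gene of basal keratinocytes. By this design, ear cells that do not descend from keratin 5 cells keep the gene. Which cells had lost it was not measured. The sample labels name keratinocytes, whereas the methods describe RNA of ear specimens, and the summed FPKM of 5 skeletal muscle markers was 333 to 2802 and that of 6 fibroblast markers 3858 to 14860, so the samples are treated as whole ear tissue.

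The targeted gene did not check the labels. At 2 weeks *Socs3* had an FPKM of 9.71, 10.2, 10.3 and 10.3 in WT and 1.25, 9.32, 12.6 and 3.51 in the mice labelled cKO, and the groups overlapped (log2(FC) -1.06, SE 0.63, adjusted p = 0.18, limma). At 10 weeks it was higher in every mouse labelled cKO (29.8 to 47.7) than in every WT mouse (2.02 to 4.81), against the direction of a deletion. FPKM over the whole gene does not separate the deleted stretch from the rest, so the groups below are those of the labels, and every direction given for cKO is a direction for mice labelled cKO.

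S100 proteins are small proteins with a pair of calcium-binding EF-hand loops that work mostly as dimers. Inside the cell they bind targets such as annexins when calcium rises, and some are released and act on surface receptors. *S100a8* and *S100a9* encode the subunits of calprotectin, which binds calcium, zinc and manganese, is abundant in neutrophils, and is made by keratinocytes of wounded or inflamed skin. Most S100 genes, the 10 here among them, lie in a cluster on mouse chromosome 3 close to the genes of the cornified envelope.

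FPKM values are normalized for gene length and library size, so levels can be compared between genes roughly. A shift of short against long genes between libraries, given below, limits this. Changes were tested on log2(FPKM + 0.1) with limma over all genes that reached an FPKM of 1 in 3 or more of the libraries in the fit. A DEG had a Benjamini-Hochberg adjusted p below 0.01 and a |log2(FC)| of at least 1. All 10 S100 genes passed the filter in every comparison. The read depth behind the values is unknown, and no counting error could be attached to them. Library numbers run in separate ranges for the 4 groups, and no source states batches. A batch, if there was one, cannot be told apart from condition.

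A property of the libraries moved with the groups. Relative to WT at 2 weeks, the median log2 level of 906 genes with under 1024 exon bases was higher by 0.45 to 0.98 in the 10-week WT, by 0.15 to 0.74 in cKO at 2 weeks and by 0.23 to 0.59 in cKO at 10 weeks, while that of 5628 genes with at least 4096 bases was lower by up to 1.0. Replicate 1 of cKO at 2 weeks showed it most in its group (0.74) and had the lowest mean correlation with its group across genes (r = 0.880, against 0.909 to 0.930 for the others). S100 genes are short, with 392 to 1617 exon bases, and 7 of the 10 have under 1024. For the 10 S100 genes, values are therefore given also with the trend of each sample with length and GC content removed, singly or as a range, and genes outside the 10 are given without this step.

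*S100a8* and *S100a9* rose together in cKO at 2 weeks, by far more than any other S100 gene. The FPKM of *S100a8* was 5.87, 10.4, 5.93 and 4.57 in WT and 164, 216, 118 and 234 in cKO. That of *S100a9* was 3.40, 6.87, 3.10 and 7.56 in WT and 88.9, 139, 87.5 and 192 in cKO. Every cKO mouse lay at least 11.4-fold above the highest WT mouse for both genes. The log2(FC) was 4.77 (SE 0.30, 27.4-fold, adjusted p = 4.45e-05) for *S100a8* and 4.60 (SE 0.37, 24.3-fold, adjusted p = 0.00012) for *S100a9*. With the length and GC trend removed these were 3.53 (adjusted p = 0.000868) and 3.55 (adjusted p = 0.00109), still DEGs.

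**Figure D1:**
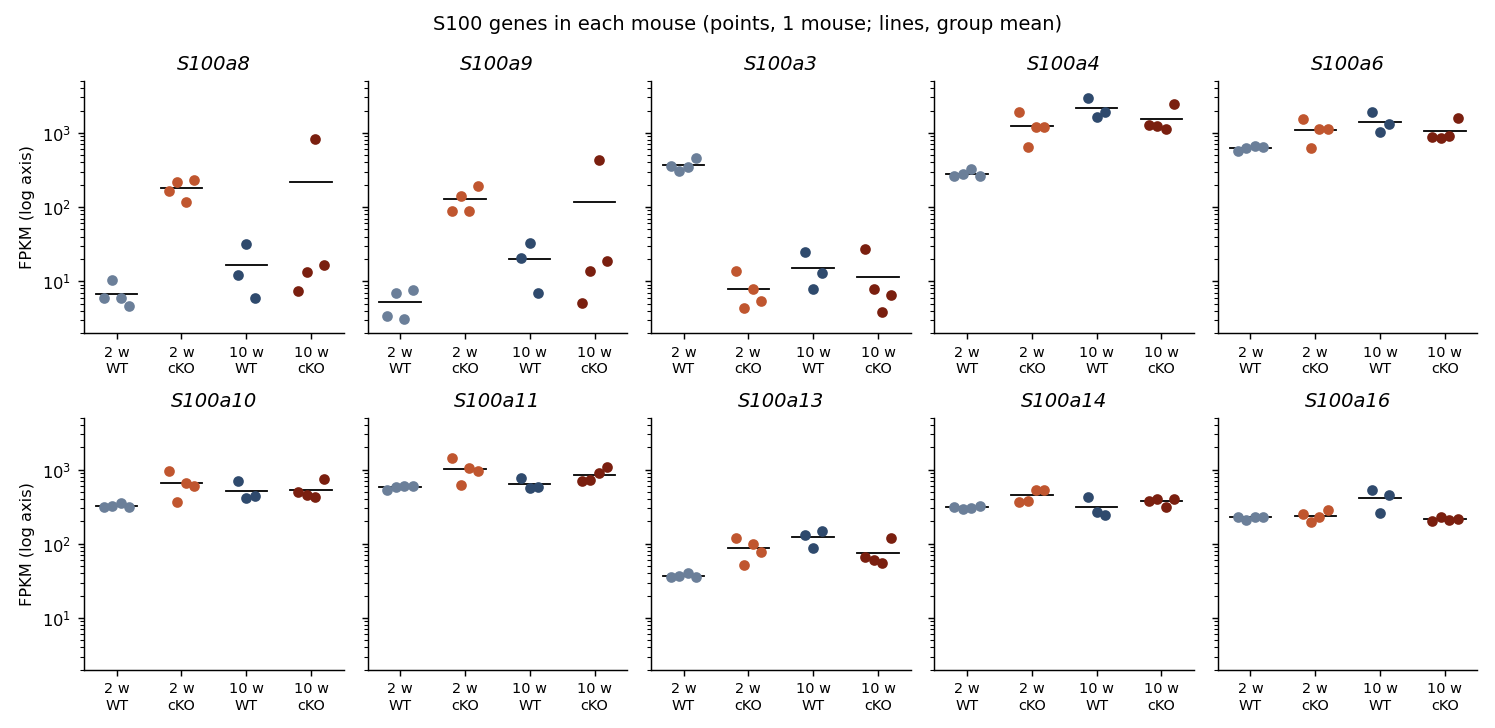
FPKM of each of the 10 S100 genes (log axis) in the 4 groups, where each point is 1 mouse and each line the mean of its group. *S100a8* and *S100a9* are high in all 4 cKO mice at 2 weeks and in 1 of 4 at 10 weeks, *S100a3* is high only in WT at 2 weeks, and the other genes vary within a much narrower range.

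The 2 genes lie 22597 bases apart and are read from opposite strands, *S100a8* at chr3:90472993-90473956 on the plus strand and *S100a9* at chr3:90496554-90499643 on the minus strand of mm9, with 3 exon blocks each. Their promoters are shown because the 2 genes moved together. The windows hold 250 bases before and 50 after the start in RefSeq on GRCm38.p6, chr3:90668821-90669120 (plus strand) for *S100a8* and chr3:90695672-90695971 (minus strand) for *S100a9*. Capitals mark the match to the C/EBP motif TTGCNNAA, the 1 match among the 3 motifs searched on both strands.
S100a8: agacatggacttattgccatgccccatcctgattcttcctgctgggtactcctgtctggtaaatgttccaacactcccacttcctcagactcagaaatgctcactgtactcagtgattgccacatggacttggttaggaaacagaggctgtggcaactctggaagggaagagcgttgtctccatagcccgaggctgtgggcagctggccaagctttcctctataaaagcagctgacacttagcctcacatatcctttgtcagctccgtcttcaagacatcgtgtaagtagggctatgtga
S100a9: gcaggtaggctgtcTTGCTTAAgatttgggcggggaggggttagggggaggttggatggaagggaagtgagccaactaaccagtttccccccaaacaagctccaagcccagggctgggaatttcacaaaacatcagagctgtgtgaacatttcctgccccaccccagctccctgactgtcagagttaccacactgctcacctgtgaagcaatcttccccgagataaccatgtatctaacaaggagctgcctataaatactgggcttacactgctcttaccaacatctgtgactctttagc

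The C/EBP motif stood 236 bases before the *S100a9* start, and 10.8% of 32851 RefSeq promoters of this length hold it. The STAT motif TTCNNNGAA, of the factors that SOCS3 restrains, was in none of the 12 promoters found for 8 of the S100 genes (8.3% of all promoters), and the AP-1 motif TGANTCA was in 2 of them, 1 of *S100a11* and 1 of *S100a16* (7.81% of all). *S100a10* and *S100a14* had no entry. A match describes letters in these windows and no binding was measured.

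Across all 15 mice log2 levels of *S100a8* and *S100a9* followed each other (r = 0.973, a description over mice of 4 groups). The ratio of *S100a8* to *S100a9* ran from 1.22 to 1.84 in cKO at 2 weeks, and over all mice from 0.582 to 1.97. The pair made up 0.314% to 0.645% of the summed FPKM of the 10 genes in WT at 2 weeks and 3.68%, 10.9%, 4.05% and 8.19% in cKO. By mean level at 2 weeks the pair stood in the ninth and the tenth place of these 10 genes in WT and in the seventh and the eighth in cKO. In cKO the mice of each neighbour in this order overlapped from *S100a16* through *S100a8* and *S100a9* to *S100a13*.

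**Figure D2:**
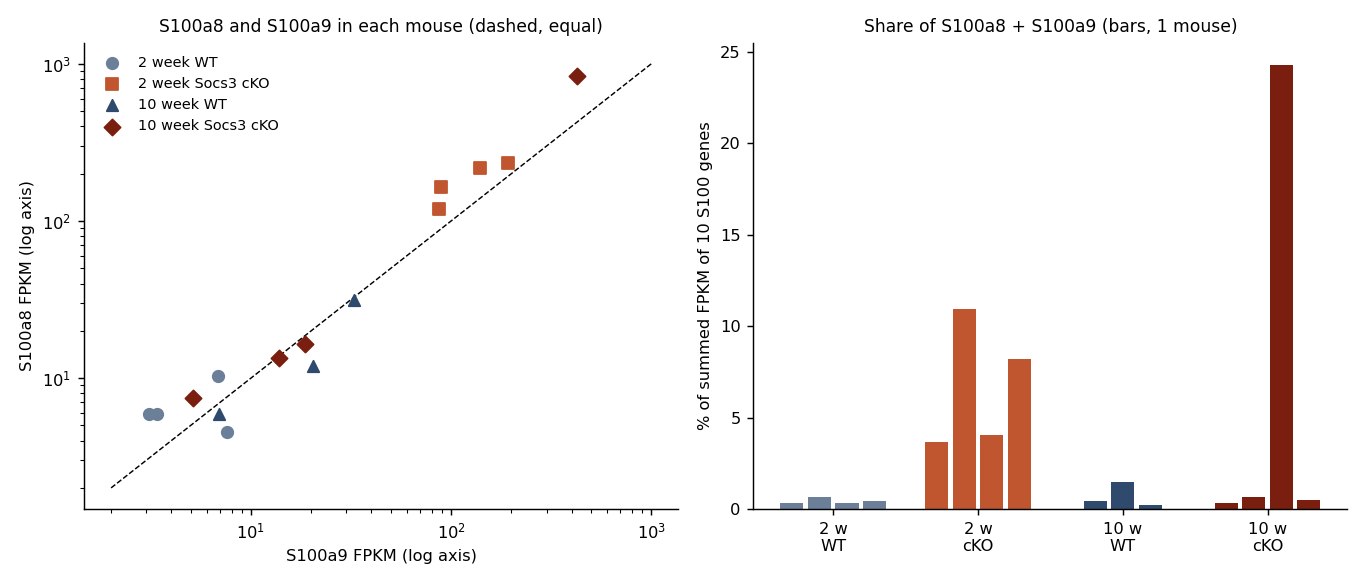
Left, FPKM of *S100a8* against *S100a9* on log axes, 1 point a mouse, with the dashed line where both are equal; right, their combined percentage of the summed FPKM of the 10 S100 genes, 1 bar a mouse. All 4 cKO mice at 2 weeks lie apart from WT, and 1 cKO mouse at 10 weeks reaches 24.3% while the other 3 stay at 0.310% to 0.682%.

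Markers of neutrophils, the cells richest in calprotectin, were low in these libraries. The summed FPKM of the 10 neutrophil markers in the files was 2.78 to 5.04 in WT and 3.14 to 6.70 in cKO at 2 weeks, against 118 to 234 for *S100a8* alone in the latter. Of the granule protein genes *Elane*, *Ngp* and *Ltf* were at 0.0937 or less in all 4 cKO mice at 2 weeks, *Camp* at 0 to 0.964 and *Mmp8* at 0.0967 to 0.418. *Mpo* was at 0 in all 4 WT mice and at 0.0774 to 1.602 in the cKO mice. Only 2 of the 10 markers passed the filter at 2 weeks, *Cxcr2* (log2(FC) 0.61, adjusted p = 0.143) and *Stfa2l1* (1.24, adjusted p = 0.204). Their part in the result was not tested. At 2 weeks 7.24% of all genes rose and 7.19% fell. Of 9 monocyte and macrophage markers tested at that age 0 were DEGs by limma and 5 had an unadjusted p below 0.05. Nearest were *Cd14* (0.73, adjusted p = 0.00803), *Mrc1* (0.78, adjusted p = 0.011), *Lyz2* (1.17, adjusted p = 0.012) and *Itgam* (-0.82, adjusted p = 0.0199). In bulk RNA, fewer cells of a type and less RNA per cell cannot be told apart.

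At 10 weeks the calprotectin genes were high in 1 of 4 cKO mice. The FPKM of *S100a8* was 11.9, 31.6 and 5.88 in WT and 7.42, 13.4, 838 and 16.5 in cKO. That of *S100a9* was 20.5, 32.7 and 6.92 in WT and 5.13, 13.8, 425 and 18.6 in cKO. The 3 other cKO mice lay within or near the WT range, and replicate 3 exceeded every cKO mouse at 2 weeks for both genes. The log2(FC) was 1.39 (SE 1.39, adjusted p = 0.445) for *S100a8* and 0.71 (SE 1.24, adjusted p = 0.668) for *S100a9*, and without replicate 3 it was -0.15 and -0.60. This mouse had a mean correlation with its group across genes of 0.942, within the 0.936 to 0.948 of the other 3.

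Replicate 3 also stood out in stress keratins, the keratins of wounded epidermis, which were looked at by mouse after these values had been seen. *Krt6a* was at 576 FPKM in it and at 111 to 125 in the other 3 cKO mice. *Krt6b* was at 632 against 28.3 to 31.9, and *Krt16* at 1134 against 284 to 306. *Krt17* was not higher in it (228 against 206 to 235). In WT at 10 weeks *Krt6a* was at 13.65 to 37.7, *Krt6b* at 2.64 to 7.135, *Krt16* at 44.75 to 139 and *Krt17* at 148 to 227. The other 3 cKO mice thus also lay above every WT mouse of that age for *Krt6a*, *Krt6b* and *Krt16*. At 10 weeks 2 of the 4 stress keratins were up-regulated DEGs by limma and 0 fell, where 12.5% of all genes tested rose and 2.43% fell. At 2 weeks, where all cKO mice had high calprotectin transcripts, 0 of these 4 keratins were up-regulated DEGs by limma, and *Krt6a* and *Krt17* fell. Among all genes tested 7.24% rose and 7.19% fell. *Krt16* was at 244 to 404.5 in cKO and 184 to 198.5 in WT at that age, with no overlap (log2(FC) 0.67, adjusted p = 0.0201). The summed FPKM of the 4 was 1364 to 1509 in WT and 784 to 1119 in cKO at 2 weeks, and 237 to 394 in WT at 10 weeks. Hair keratins, given below, were also high in WT at 2 weeks and fell in cKO, and their part was not tested. The summed neutrophil markers were also highest in replicate 3, at 18.35 FPKM against 5.30 to 7.14 in the other 3 and 8.46 to 12.9 in WT at 10 weeks. *Stfa2l1* was at 8.05 in it (0 to 1.62 in the other 3), *Cxcr2* at 5.20 (1.397 to 2.63), *Csf3r* at 2.72 (0.676 to 1.47) and *Retnlg* at 1.34 (0.450 to 0.836). In WT at 10 weeks these were at 0 to 0.903, 4.80 to 6.55, 1.54 to 1.91 and 0.350 to 2.55. *Cxcr2* and *Retnlg* in replicate 3 thus lay within the WT range, and *Stfa2l1* was the largest single part of its sum. *Elane* was at 0 in all 4, *Camp* at 0.611 in it (0 to 0.707) and *Mpo* at 0.0773 (0.119 to 2.12). The part of these genes in the result was not tested.

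Apart from the S100 genes themselves, the 3 genes most like *S100a8* over the 15 samples, among 13937 genes, were *Slc5a9* (r = 0.878), *Apol9a* (r = 0.856) and *Wfdc5* (r = 0.855). Those most like *S100a9* were *Wfdc5* (r = 0.875), *Apol7a* (r = 0.869) and *Slc5a9* (r = 0.867). *Wfdc5*, a protease inhibitor gene, was at 4.96 to 6.01 FPKM in WT and 15.2 to 20.8 in cKO at 2 weeks, and at 14.4 in replicate 3 against 7.26 to 9.62 in the other cKO mice at 10 weeks. *Slc5a9*, *Wfdc5* and *Apol7a* shared with the pair its high mice, over a much smaller range. *Apol7a* and *Apol9a* were low, at 0.883 to 1.21 and 0.914 to 1.16 FPKM in cKO at 2 weeks. *Apol9a* was at 4.70 in replicate 3 of cKO at 10 weeks, but reached 1.11 also in WT replicate 2 at 10 weeks. The correlations are over mice that share group, age and range of library numbers.

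*S100a3* moved the other way. It encodes a protein of the hair cuticle, where the enzyme encoded by *Padi3* modifies it. Its FPKM was 361, 310, 345 and 458 in WT at 2 weeks and 13.9, 4.40, 7.85 and 5.46 in cKO. The log2(FC) was -5.65 (SE 0.33, adjusted p = 3.56e-05) and stayed at -5.68 with the length and GC trend removed. At 10 weeks it was low in both genotypes, at 24.8, 7.80 and 12.7 in WT and 27.2, 7.92, 3.80 and 6.43 in cKO (log2(FC) -0.66, SE 0.60, adjusted p = 0.403).

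*Padi3* followed, from 45.4 to 61.4 FPKM in WT at 2 weeks to 0.0570 to 0.395 in cKO (log2(FC) -7.50, SE 0.33, adjusted p = 1.1e-05), and it was under 1 in every mouse at 10 weeks. Hair keratins moved in the same mice: 11 of 12 tested fell in cKO at 2 weeks, as did 7.19% of all genes. The summed FPKM of the hair keratins was 766.5 to 1246 in WT at 2 weeks and 13.1 to 30.8 in cKO. At 10 weeks it was 2.71 to 6.29 in WT and 1.32 to 17.3 in cKO. Their part in the fall of *S100a3* was not tested. Outside the 10 S100 genes, the gene most like *S100a3* over the 15 samples was *Actbl2* (r = 0.981).

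At 2 weeks 5 of the 10 S100 genes were DEGs in cKO, 4 up-regulated and 1 down-regulated. Of all 13524 genes tested, 7.24% were up-regulated and 7.19% down-regulated. These shares depend on single mice: the 1951 DEGs among all genes became 859 to 1156 without any 1 WT mouse or without cKO replicate 3 or 4, 2680 without cKO replicate 1 and 3348 without cKO replicate 2, while the S100 genes called numbered 4 to 7. The median log2(FC) of the 10 was 0.83 and that of all genes -0.21. Scaling by the median of ratios moved the median of all genes to -0.02 and quantile normalization to 0.06, and the median of the 10 to 1.03 and 0.12. The intervals (95%) of *S100a8* (4.10 to 5.45) and *S100a9* (3.75 to 5.45) did not overlap those of the other 8, of which the highest upper bound was 2.72, for *S100a4*.

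**Figure D3:**
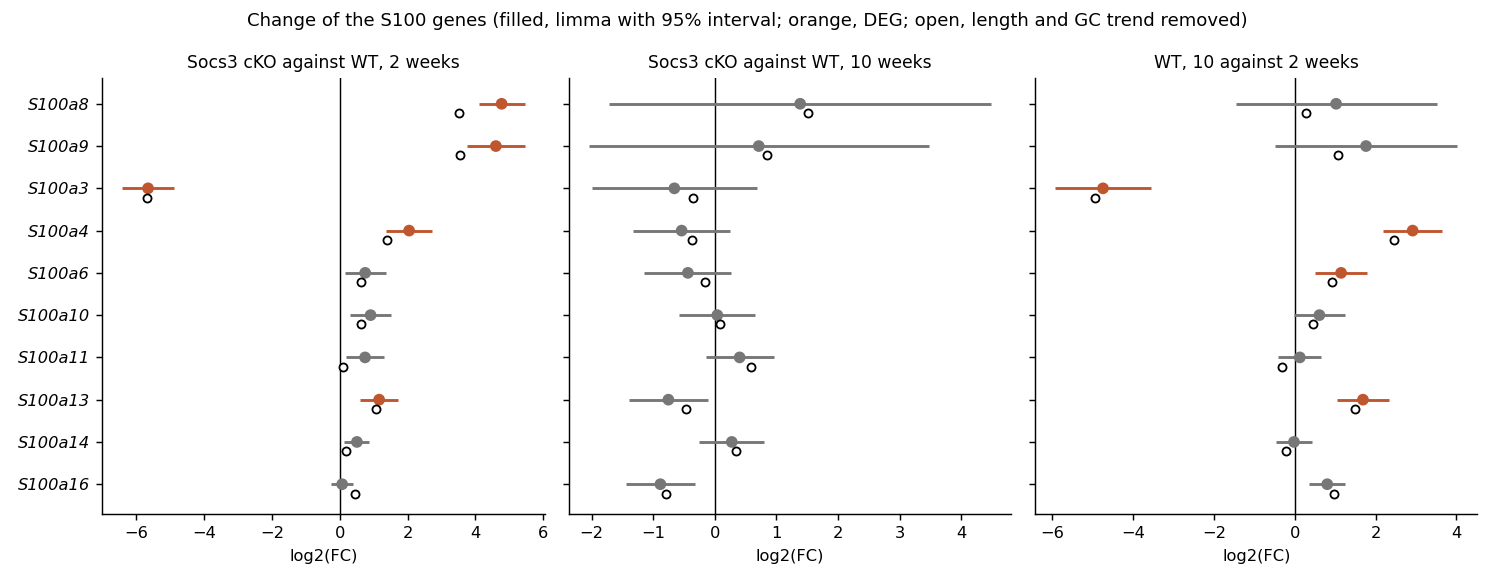
log2(FC) of the 10 S100 genes with its 95% interval for cKO against WT at 2 weeks and at 10 weeks and for 10 against 2 weeks in WT (each panel has its own log2 axis), with DEGs in orange and open points for the value after removal of the length and GC trend. At 2 weeks *S100a8* and *S100a9* lie at 4.77 and 4.60 and *S100a3* at -5.65, while at 10 weeks 0 of 10 are DEGs and the intervals of *S100a8* and *S100a9* are the widest.

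*S100a4*, a gene of fibroblasts and motile cells whose protein binds non-muscle myosin, was at 262, 277, 323 and 264 FPKM in WT at 2 weeks and at 1905, 651, 1195 and 1216 in cKO. The groups did not overlap, and the log2(FC) was 2.05 (SE 0.30, adjusted p = 0.00162), or 1.38 (adjusted p = 0.0002) with the length and GC trend removed. At 10 weeks it was at 2987, 1646 and 1935 in WT, against 1292, 1233, 1145 and 2489 in cKO (log2(FC) -0.54, SE 0.35, adjusted p = 0.246). Of 6 fibroblast markers tested in cKO at 2 weeks *Dcn* rose (1.24, adjusted p = 0.00982), the collagens *Col1a1*, *Col1a2* and *Col3a1* fell (-3.06, -1.72 and -1.21), and *Lum* (0.40, adjusted p = 0.283) and *Pdgfra* (0.19, adjusted p = 0.412) did not pass. The part of fibroblasts was not tested. Its partner gene *Myh9* was at 71.3 to 77.4 FPKM in WT and 3.59 to 33.5 in cKO at 2 weeks (log2(FC) -2.16, SE 0.63, adjusted p = 0.0236).

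*S100a13*, whose protein takes part in the release of FGF1 and IL-1 alpha, was the 1 other gene called. Its FPKM was 35.3, 36.4, 40.7 and 35.9 in WT at 2 weeks and 121, 51.7, 99.4 and 76.7 in cKO, with no overlap (log2(FC) 1.16, SE 0.25, adjusted p = 0.00786). The call was near the threshold: it was lost without any 1 of the 8 mice other than cKO replicate 2 (adjusted p up to 0.0271, or a log2(FC) of 0.98 without cKO replicate 1). With the length and GC trend removed it was 1.06 (adjusted p = 0.00101).

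*S100a6*, *S100a10*, *S100a11* and *S100a14* had values between the clear changes and none. *S100a6* (calcyclin) was at 576 to 656 FPKM in WT at 2 weeks and at 1556, 618, 1112 and 1123 in cKO (log2(FC) 0.75, SE 0.26, adjusted p = 0.0437). *S100a10*, the partner of annexin A2, was at 312 to 359 and at 961, 366, 665 and 606 (0.91, SE 0.27, adjusted p = 0.0247). *S100a11*, which binds annexin A1, was at 530 to 607 and at 1437, 626, 1050 and 945 (0.75, SE 0.24, adjusted p = 0.0335). In these 3 genes, as in the called *S100a4* and *S100a13*, cKO replicate 2 was the lowest of its group and replicate 1 the highest, the same 2 mice that stood at the ends of the short-gene shift. Without replicate 2, *S100a6* (1.0, adjusted p = 0.00154) and *S100a10* (1.16, adjusted p = 0.00165) passed both thresholds. With quantile normalization *S100a6* and *S100a11* turned to -0.05 each, and with the length and GC trend removed *S100a6* was at 0.64, *S100a10* at 0.63 and *S100a11* at 0.10. Of the 32-base words in the exons of *S100a11*, 78.5% occur elsewhere in mm9, so its values are uncertain; the other 9 genes have under 1% of such words.

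*S100a14* and *S100a16*, genes of epithelia, had the smallest log2(FC) of the 10 at 2 weeks. *S100a14* was at 297 to 326 FPKM in WT at 2 weeks and 368, 379, 523 and 524 in cKO (log2(FC) 0.51, SE 0.16, adjusted p = 0.0327). *S100a16* was at 208 to 233 and at 195 to 285 (0.07, SE 0.15, adjusted p = 0.692, 95% interval -0.26 to 0.41). With the length and GC trend removed they were at 0.20 and 0.46, and *S100a11*, at 0.10, was then the smallest. With quantile normalization both turned, to -0.02 and -0.37. Over all 15 mice *S100a14* ran from 248 to 524 FPKM and *S100a16* from 195 to 532.

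At 10 weeks 0 of the 10 S100 genes were DEGs by limma, and 2 had an unadjusted p below 0.05, *S100a13* and *S100a16*. Of 13105 genes tested, 12.5% were up-regulated and 2.43% down-regulated, 1957 in all, which became 745 (without WT replicate 3) to 2665 (without WT replicate 2) with 1 mouse left out and moved by over 1.5 times also without WT replicate 1 or cKO replicate 1, 2 or 3. The median log2(FC) of the 10 was -0.20 and that of all genes 0.31, which became -0.52 and -0.01 by the median of ratios and -0.05 and -0.04 by quantile normalization. *S100a16* was at 532, 257 and 449 FPKM in WT and at 204, 228, 206 and 219 in cKO, with no overlap (-0.88, SE 0.25, adjusted p = 0.0214). Without WT replicate 2 it was called (-1.19, adjusted p = 0.00182). *S100a13* was at 132, 87.7 and 148 and at 66.6, 59.5, 54.1 and 118 (-0.75, SE 0.29, adjusted p = 0.0645). Once the length and GC trend was removed, the 10 values lay between -0.78 (*S100a16*) and 1.51 (*S100a8*), again with 0 DEGs by limma. *S100a13* and *S100a16* were lower in cKO, where *S100a13* had been higher at 2 weeks.

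The remaining 4 genes overlapped between genotypes at 10 weeks. *S100a6* was at 1043 to 1908 FPKM in WT and 851 to 1587 in cKO (log2(FC) -0.44, adjusted p = 0.292). *S100a10* was at 412 to 694 and 422 to 744 (0.04, adjusted p = 0.914). *S100a11* was at 563 to 780 and 699 to 1094 (0.40, adjusted p = 0.216), and *S100a14* at 248 to 432 and 311 to 404 (0.28, adjusted p = 0.369). The 95% intervals of these 4 lay between -1.14 and 0.96. In cKO replicate 4 *S100a4*, *S100a6*, *S100a10*, *S100a11* and *S100a13* were each the highest of their group, and that mouse had the largest short-gene shift of its group (0.59).

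In WT ear some of the 10 genes changed with age. From 2 to 10 weeks 4 of the 10 genes were DEGs, 3 up and 1 down, where of all 13937 genes tested 6.18% were up and 19.4% down (3559 in all, and 2205 to 4519 with 1 mouse left out, moving by over 1.5 times without WT replicate 1 or 3 at 10 weeks). The median log2(FC) of the 10 was 0.91 and that of all genes -0.44, which became 1.33 and -0.02 by the median of ratios and 0.38 and 0.07 by quantile normalization. *S100a4* rose by a log2(FC) of 2.92 (SE 0.34, adjusted p = 1.84e-05), *S100a13* by 1.69 (SE 0.30, adjusted p = 0.000492) and *S100a6* by 1.15 (SE 0.30, adjusted p = 0.00667). With the length and GC trend removed the first and second were still called (2.45 and 1.48), while *S100a6* fell below the fold threshold (0.93). The call of *S100a6* was also lost on leaving out any 1 of the 4 WT mice at 2 weeks, or replicate 1 or 3 of WT at 10 weeks. *S100a3* fell by 4.74 on the log2 scale (SE 0.55, adjusted p = 1.88e-05).

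*S100a8* (log2(FC) 1.02, SE 1.16, adjusted p = 0.475) and *S100a9* (1.76, SE 1.06, adjusted p = 0.174) did not pass the test with age in WT. *S100a16* (0.80, adjusted p = 0.00646) missed the fold threshold, and without WT replicate 2 at 10 weeks passed it (1.11). *S100a10* (0.61), *S100a11* (0.13) and *S100a14* (-0.02) had adjusted p values of 0.0924, 0.686 and 0.945. The contrasts of cKO with WT at 2 weeks and of the older with the younger WT share the 4 WT mice at 2 weeks, so likeness between them is not independent.

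In cKO mice 0 of the 10 genes were DEGs by limma between 2 and 10 weeks, and 2 had an unadjusted p below 0.05, *S100a8* and *S100a9*. Of all genes 2.01% rose and 1.53% fell (493 in all, and 300 to 700 with 1 mouse left out, moving by over 1.5 times without replicate 1, 2 or 3 at 10 weeks). The median log2(FC) of the 10 was -0.22 and that of all genes 0.11. *S100a8* had a log2(FC) of -2.36 (SE 1.08, adjusted p = 0.178) and *S100a9* of -2.12 (SE 0.98, adjusted p = 0.182). Without replicate 3 at 10 weeks both were called, at -3.90 (adjusted p = 0.000318) and -3.44 (adjusted p = 0.00232). The other 8 genes lay between -0.26 and 0.33, with adjusted p of 0.392 or more. With the length and GC trend removed *S100a8* was at -1.80, *S100a9* at -1.66 and the other 8 between -0.26 and 0.68.

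The genotype by age interaction, the log2(FC) in cKO at 10 weeks minus that at 2 weeks, was called for 3 of the 10 genes at an adjusted p below 0.01, 1 higher and 2 lower at 10 weeks. Of all genes 18.5% were higher and 7.05% lower (3566 in all, and 1994 to 5117 with 1 mouse left out, moving by over 1.5 times without WT replicate 2 at 2 weeks or WT replicate 1 or 3 at 10 weeks). It was 4.99 for *S100a3* (SE 0.76, adjusted p = 0.000343), -2.58 for *S100a4* (SE 0.46, adjusted p = 0.001) and -1.92 for *S100a13* (SE 0.41, adjusted p = 0.00258). After removal of the length and GC trend these were 5.33, -1.77 and -1.54, and *S100a16* (-0.95, adjusted p = 0.0155) was called too (-1.24, adjusted p = 0.00639). *S100a8* (-3.39, SE 1.58, adjusted p = 0.0901) and *S100a9* (-3.89, SE 1.44, adjusted p = 0.0386) were called without cKO replicate 3 at 10 weeks, at -4.92 (adjusted p = 0.000304) and -5.20 (adjusted p = 0.00056). With all mice, neither passed the threshold.

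The order of levels among the 10 S100 genes, per length, changed with these shifts. The place of *S100a11* in it is uncertain, because 78.5% of its 32-base words occur elsewhere in mm9. In WT at 2 weeks mean FPKM ran from *S100a6* (623 ± 33.8, SD, n = 4) and *S100a11* (580 ± 35.0) through *S100a3* (368 ± 63.4), *S100a10* (327 ± 22.0), *S100a14* (311 ± 12.4), *S100a4* (281 ± 28.5) and *S100a16* (226 ± 12.2) to *S100a13* (37.1 ± 2.42), *S100a8* (6.69 ± 2.54) and *S100a9* (5.23 ± 2.31). The mice of *S100a6* and *S100a11* overlapped, as did those of each neighbour from *S100a3* to *S100a4* and of *S100a8* and *S100a9*. In cKO at 2 weeks *S100a4* was first (1242 ± 514), *S100a8* seventh (183 ± 52.4) and *S100a3* last (7.90 ± 4.24). *S100a4* was first also at 10 weeks in both genotypes (2189 ± 706, n = 3, and 1540 ± 636, n = 4), overlapping *S100a6* in each. *S100a3* had the lowest mean in both (15.1 and 11.3), but its mice overlapped those of *S100a8* and *S100a9* in both, and without cKO replicate 3 its mean (13.8) was above those of *S100a9* (12.5) and *S100a8* (12.4).

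The spread within groups differed by gene. In WT at 2 weeks the coefficient of variation was 3.97% to 10.1% in the 7 genes other than *S100a3* (17.2%), *S100a8* (38.0%) and *S100a9* (44.1%). In cKO at 10 weeks it was 189% for *S100a8* and 178% for *S100a9*, against 5.34% for *S100a16* and 11.8% for *S100a14*. The log2 levels of *S100a4*, *S100a6* and *S100a13* followed each other over the 15 mice (r = 0.914 to 0.944). Outside the 10, the genes most like each were *Apoc1* for *S100a4* (r = 0.985), *Nsmce1* for *S100a6* (0.978), *Prdx1* for *S100a10* (0.983), *Gapdh* for *S100a11* (0.968), *1810013D10Rik* for *S100a13* (0.994), *Tssc1* for *S100a14* (0.891) and *Timm13* for *S100a16* (0.958). They share the mice, the ages and the short-gene shift.

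Some neighbours in the cluster moved apart and others moved together. *S100a3* (chr3:90404137-90406624) ends 1067 bases before *S100a4* (chr3:90407692-90409967) on the same strand of mm9, and the ratio of *S100a4* to *S100a3* was 0.578 to 0.938 in WT at 2 weeks and 137 to 223 in cKO. At 10 weeks it was 120 to 211 in WT and 47.4 to 387 in cKO. *S100a7a*, 10940 bases before *S100a8*, fell where *S100a8* rose. *S100a11* and *S100a10* lie 2824766 bases and more beyond *S100a9*. Log2 levels of *S100a8* and *S100a9* followed each other over the 15 mice (r = 0.973), as did those of *S100a10* and *S100a11* (r = 0.894), where *S100a11* is uncertain. *S100a1* and *S100a13*, 42 bases apart, were both up-regulated in cKO at 2 weeks.

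**Figure D4:**
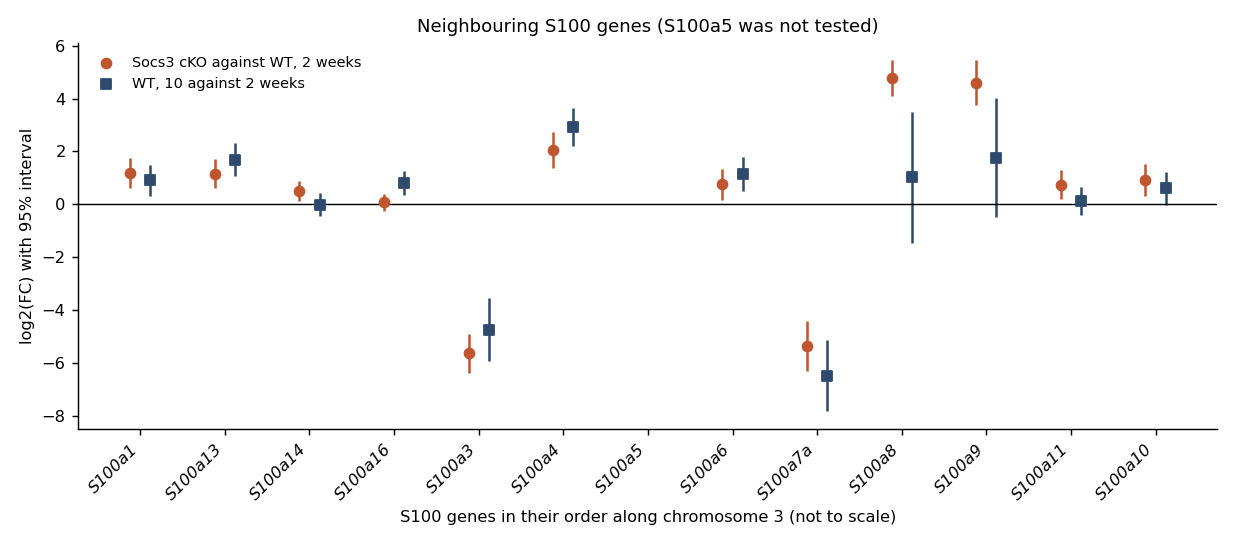
log2(FC) with its 95% interval for 13 S100 genes in their order along chromosome 3 (evenly spaced, not to scale), for cKO against WT at 2 weeks (circles) and 10 against 2 weeks in WT (squares), which share WT mice at 2 weeks. *S100a3* and *S100a7a* lie at -5.65 and -5.36 in the first between neighbours that are higher, and *S100a5* was not tested.

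Of the other S100 genes, 6 were in the files and 3 of them passed the filter at 2 weeks. *S100a1*, 42 bases from *S100a13* and read from the opposite strand, was at 72.7 to 87.7 FPKM in WT and 110 to 248 in cKO (log2(FC) 1.18, SE 0.25, adjusted p = 0.00761). It is a gene of striated muscle, and 3 of 5 skeletal muscle markers rose at 2 weeks. Among all genes tested 7.24% rose and 7.19% fell at that age. The muscle markers had sums of 602 to 916 FPKM in WT and 1418 to 2802 in cKO. From high to low the cKO mice were replicates 1, 3, 4 and 2 in the muscle sum, in *S100a1* and in *S100a13*. The short-gene shift of these libraries had the same order (0.74, 0.64, 0.55 and 0.15). Both S100 genes are short, and *S100a1* and the muscle markers are given without removal of the length and GC trend. The part of the shift in this order was not tested. At 10 weeks the muscle sums were 669 to 1143 in WT and 333 to 612 in cKO, and the part of muscle was not tested. *S100b*, a gene of Schwann and cartilage cells, was at 14.6 to 21.0 and 34.0 to 82.4 (1.71, SE 0.27, adjusted p = 0.00228), and of 4 Schwann cell and 4 cartilage markers tested 0 rose and 1 cartilage marker fell. Of 5 adipocyte markers, cells that also express *S100b*, all were higher in cKO at 2 weeks and 0 were DEGs by limma (2 at an unadjusted p below 0.05), with sums of 216 to 252 FPKM in WT and 362 to 694 in cKO. The part of these cells was not tested. *S100a7a*, of the psoriasin group, was at 15.8 to 24.4 in WT and 0.101 to 0.776 in cKO (-5.36, SE 0.41, adjusted p = 8.96e-05), and at 1.01 or less in every mouse at 10 weeks. It had the pattern of *S100a3*. *S100a5*, *S100g* and *S100z* reached at most 1.86, 0.223 and 1.22 FPKM.

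Fused S100 genes encode long epidermal proteins that begin with an S100 domain. In cKO at 2 weeks 3 of 6 rose and 3 fell. The shares of all genes tested were 7.24% and 7.19%, and at 10 weeks 12.5% and 2.43%. *Hrnr* (hornerin) went from 19.8 to 36.0 FPKM in WT to 262 to 313 (log2(FC) 3.36, SE 0.19, adjusted p = 2.88e-05), *Flg2* (filaggrin 2) rose by 1.65 (adjusted p = 0.000349) and *Rptn* (repetin) by 1.15 (adjusted p = 0.0033). *Tchh* (trichohyalin, of the hair follicle) went from 264 to 438 down to 1.27 to 5.61 (-6.80, SE 0.46, adjusted p = 6.16e-05), *Tchhl1* fell by 5.63 on the log2 scale (adjusted p = 0.00166), and *Crnn* (cornulin) fell by 5.57 (adjusted p = 0.000348). At 10 weeks 4 of the 6 were tested and 0 were DEGs by limma (2 at an unadjusted p below 0.05), with *Rptn* (1.98, adjusted p = 0.01) and *Hrnr* (1.58, adjusted p = 0.016) nearest.

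Among 7 receptor genes of S100 proteins, 2 rose and 0 fell at 2 weeks, and 4 rose and 0 fell at 10 weeks. The shares of all genes tested were 7.24% and 7.19% at 2 weeks and 12.5% and 2.43% at 10 weeks, where most DEGs were higher in cKO. *Tlr4*, a receptor of calprotectin, was at 1.32 to 1.93 FPKM in WT and 4.05 to 7.88 in cKO at 2 weeks (log2(FC) 1.70, SE 0.25, adjusted p = 0.00163) and rose by 1.46 at 10 weeks (adjusted p = 0.00368). *Cd36* rose at both ages (1.66 and 1.77, adjusted p = 0.000252 and 0.000627). *Cd14*, the Tlr4 co-receptor, which is also on the macrophage list, rose by 2.32 at 10 weeks (adjusted p = 0.000344), and *Myd88* by 1.26 (adjusted p = 0.00205). At that age 6 of 9 monocyte and macrophage markers rose too, and their part was not tested. *Ager* (RAGE), also described as a receptor of S100 proteins, was at -1.27 (adjusted p = 0.0591) and -0.89 (adjusted p = 0.0224), *Ly96* at 1.19 (adjusted p = 0.0163) and 0.29 (adjusted p = 0.439), and *Bsg* at -0.19 (adjusted p = 0.482) and -0.23 (adjusted p = 0.33).

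Of 9 genes for binding partners 3 rose and 1 fell at 2 weeks. The shares of all genes tested were 7.24% and 7.19%, and at 10 weeks 12.5% and 2.43%. *Il1a* rose by 2.11 (SE 0.27, adjusted p = 0.000921), from 1.76 to 3.61 FPKM in WT to 7.92 to 14.3 in cKO. *Anxa1*, the partner of S100a11, rose by 1.22 (adjusted p = 0.00558) and *Cacybp*, the partner of S100a6, by 1.03 (adjusted p = 0.00622), and *Padi3* fell as given above. *Anxa2* (0.68, adjusted p = 0.0205), *Ahnak* (0.80, adjusted p = 0.0125), *Anxa6* (-0.49, adjusted p = 0.00841) and *Fgf1* (-0.63, adjusted p = 0.0219) missed a threshold. At 10 weeks 8 were tested and *Myh9* rose (1.24, adjusted p = 0.00726). *Anxa1* was at 1.13 (adjusted p = 0.013), *Il1a* at 0.68 (adjusted p = 0.129) and *Cacybp* at 0.04 (adjusted p = 0.869), so of the 3 partners that rose at 2 weeks 0 were DEGs at 10 weeks by limma and 1, *Anxa1*, had an unadjusted p below 0.05.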

How the data were processed

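Total RNA of mouse ear was sequenced by the authors as single reads of 50 bases and aligned to mm9 with TopHat2 2.1.0; their processing notes also name Cufflinks, with no role given. The authors deposited 1 FPKM value for each of 21110 genes and library, normalized for gene length and mapped reads. The paper names more wild type mice, which were not analysed here. The sample labels gave the groups and replicate numbers; no source states litters or batches. The members, gene lists, tests and motifs were chosen with earlier results of these data known. All 10 S100 genes are named, lists are given by counts, and the genes most like a member were taken by Pearson's r over the 15 samples.

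Values were analysed as log2(FPKM + 0.1) with limma 3.58.1 in R 4.3.3 (trend in the prior variance, 2-sided, Benjamini-Hochberg over all genes tested), because counts for edgeR, the authors' tool, were not used here. Each cKO comparison was fitted on its 2 groups, and the age contrasts and the interaction on all 4. The step was tested on simulated data. The alternatives were pseudocounts of 1 and 0.01, no filter and a stricter one, median-of-ratios and quantile scaling, the replicate block, removal of the trend with length and GC content (splines with 5 degrees of freedom), a single fit of all 4 groups, a prior variance without trend and each mouse left out in turn. Fitting the age contrasts on only the 2 groups compared, and the order of levels in cKO at 10 weeks without replicate 3, were added after seeing the data. Positions and exon lengths came from GENCODE on mm9, promoters from RefSeq on GRCm38.p6, and word counts from the mm9 sequence. *S100a2* and *Flg* were not analysed here. Other steps ran in Python 3.11.15 (matplotlib 3.10.9, numba 0.67.0, pandas 2.3.3, numpy 2.4.6).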

Additional observations from a re-analysis of the deposited data

Results flagged for a closer look

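In 41 sets of 4 mice, 5 had 1 mouse far from the other 3 by Dixon's test, at its 95% critical value; chance gives about 1 in 20. In cKO at 10 weeks *S100a8* was at 838.1 FPKM and *S100a9* at 425.2 in replicate 3 (gap over range 0.989 and 0.968, and on the log2 scale 0.832 and 0.710, the latter below the critical value), and *S100a4* at 2489 and *S100a6* at 1587 in replicate 4. In WT at 2 weeks *S100a16* was at 207.8 in replicate 2, below 231 to 233 in the others.

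The change in cKO differed between 10 and 2 weeks by the interaction test (limma) for 6 S100 genes: by 4.99 on the log2 scale for *S100a3* (adjusted p = 0.000343), -2.58 for *S100a4* (adjusted p = 0.001), -1.92 for *S100a13* (adjusted p = 0.00258), -1.65 for *S100a1* (adjusted p = 0.00361), 6.60 for *S100a7a* (adjusted p = 0.000109) and -1.94 for *S100b* (adjusted p = 0.00165). The 10 S100 genes and 4 of the other S100 genes were tested. Among all 13937 genes the same threshold, without a fold threshold, called 18.5% higher and 7.05% lower at 10 weeks.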

How the results depend on the processing

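Over the alternatives other than leaving out a mouse, 4 or 5 of the 10 S100 genes were called at 2 weeks, 0 at 10 weeks, 3 to 5 with age in WT, 0 with age in cKO and 3 or 4 for the interaction. *S100a8*, *S100a9*, *S100a3* and *S100a4* kept direction and call at 2 weeks under every alternative tried. *S100a13* lost its call with no filter (adjusted p = 0.0189), the median of ratios (1.36, adjusted p = 0.0102), quantile normalization (0.99) and the replicate block (adjusted p = 0.0192). The replicate block (same number, no pairing in the labels) gave 4, 0, 4, 0 and 3 calls. Between genotypes, deviations of same-numbered mice correlated at -0.06 to 0.06 at 2 weeks and -0.20 to 0.04 at 10 weeks. Between ages they correlated at 0.03 to 0.09 in WT, each best with its own number, and at -0.11 to 0.24 in cKO. With so few mice these values neither show nor exclude a pairing. Over all genes the block gave 751 DEGs against 1951 at 2 weeks. The cause of the losses was not tested.

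With 1 mouse left out in turn, 4 to 7 genes were called at 2 weeks, 0 to 1 at 10 weeks, 3 to 5 with age in WT, 0 to 2 with age in cKO and 3 to 5 for the interaction. The 1 at 10 weeks appeared without WT replicate 2, the 2 with age in cKO without cKO replicate 3 at 10 weeks, and the 5 for the interaction without that mouse or without cKO replicate 2 at 2 weeks. Signs that turned belonged to values that were not called. In the order of the comparisons, with 1 mouse left out *S100a16* ranged from -0.0172 to 0.167 at 2 weeks. At 10 weeks *S100a8* ranged from -0.15 to 2.12, *S100a9* from -0.60 to 1.51 and *S100a10* from -0.14 to 0.28. With age in WT *S100a11* ranged from -0.0248 to 0.21 and *S100a14* from -0.27 to 0.14. With age in cKO *S100a3* ranged from -0.30 to 0.63 and *S100a6* from -0.29 to 0.15. For the interaction *S100a14* ranged from -0.386 to 0.0151.

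Quantile normalization turned *S100a6* (-0.0503), *S100a11* (-0.0474), *S100a14* (-0.0203) and *S100a16* (-0.37) at 2 weeks, *S100a11* (-0.47) with age in WT, *S100a6* (0.19) and *S100a11* (0.0156) with age in cKO, and *S100a11* (0.49) and *S100a14* (0.28) for the interaction. The median of ratios turned *S100a10* (-0.28) and *S100a14* (-0.0493) at 10 weeks and *S100a14* (0.40) with age in WT. The replicate block turned *S100a10* (-0.14) at 10 weeks and *S100a14* (0.03) with age in WT. Removal of the length and GC trend, alone and with the block, turned *S100a11* with age in WT (-0.32 and -0.28), *S100a6* (0.12 in both) and *S100a11* (0.14 in both) with age in cKO, and *S100a11* (0.46 and 0.42) and *S100a14* (0.15 and 0.12) for the interaction; with the block it also turned *S100a10* at 10 weeks (-0.0502). Over all genes the share of DEGs that were higher at 10 weeks in cKO, 83.7%, became 57% by the median of ratios, 52.7% by quantile normalization and 58.1% with the trend removed, and that with age in WT, 24.2%, became 49.1%, 52.2% and 52.5%; for the interaction, 72.4% became 50.1%, 43.6% and 43.3%. With 3 or 4 mice a group and no read depth, values below the thresholds do not show that genes did not change.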
